A study of Mus musculus with 72 samples.

Results

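The libraries labelled 6NJ and 6J of the dorsal hippocampus (DH) after a cue were compared. They were chosen by their labels (region DH, condition cue) and made up 12 of the 72 bulk messenger RNA libraries of the series, 6 for each strain label. All came from male mice labelled C57BL/6J (6J) or C57BL/6NJ (6NJ), and tissue was taken 30 min after a cue given without shock. The labels name no transgene, deletion or drug. The other groups used below were DH from the home cage, DH taken 30 min after fear conditioning (labelled shock and cue), and the ventral hippocampus (VH) after the cue, each again with 6 libraries for each strain label. Counts and the main gene values are given with and without the 6NJ library coded 40A.

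C57BL/6J and C57BL/6NJ descend from the same inbred strain and have been bred apart for decades. Known differences between them include a deletion within Nnt in C57BL/6J, an intronic deletion that lowers Gabra2 RNA in the brain of C57BL/6J, and a frameshift in Crb1 in C57BL/6N mice. The dorsal hippocampus is the part of the hippocampus most closely tied to spatial and contextual memory, and neurons that are active during learning switch on immediate early genes such as Fos, Arc and Egr1 within minutes. The comparison asks which transcripts differ between the substrains after exposure to the cue alone.

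Nnt and Gabra2, which should tell the substrains apart, went against the labels. Nnt encodes the transhydrogenase of the inner mitochondrial membrane and lies at chr13:119335448-119408997 on the minus strand (GRCm38). Its lowest, median and highest levels were 36.9, 39.2 and 44.2 CPM (read counts relative to the library total) in the libraries labelled 6J, and 18.3, 19.9 and 22.0 CPM in those labelled 6NJ. Gabra2, a GABA-A receptor subunit gene at chr5:70957597-71095849, ranged from 232 to 258 CPM (median 235) under the 6J label and from 102 to 121 CPM (median 116) under the 6NJ label. Crb1, a cell polarity gene of the retina at chr1:139197056-139377100, ranged from 0.175 to 0.61 CPM (median 0.323) under 6J and from 1.13 to 1.59 CPM (median 1.38) under 6NJ. None of these ranges overlapped. Nnt and Gabra2 were low in the libraries labelled 6NJ, each the opposite of what is known of the named substrains. Crb1 was lower in those labelled 6J, at low levels under both labels. The frameshift known for it in C57BL/6N is a change of sequence and gives no direction for its RNA here. The groups are therefore called by their labels, and no direction below is assigned to a substrain.

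Library totals were 34015037 to 38714492 gene counts, and mitochondrial genes took 5.64% to 6.91% of them. The mean correlation of a library with the others of its group, across genes, was 0.9847 to 0.9921, and that of 40A was 0.9895. In a principal component analysis, the second component (14.7% of the variance) separated the labels, at -30 to -4.2 for 6J and 9.8 to 21.3 for 6NJ. The third (9.24%) set apart 40A, at -32.6 against -10.4 to 18.1 for the others. Library 40A had 43.2 CPM of Col6a1, a collagen gene, against 5.99 to 13.8 CPM in the other 11 libraries, and 3.74 CPM of Tacr3, the neurokinin 3 receptor, against 0.14 to 1.17 CPM. The first component (27.8%) followed genes of the choroid plexus, the secretory lining of the ventricles: Ttr, which encodes its main secreted protein transthyretin, ranged from 23.6 to 8280 CPM under 6J and from 19.2 to 3740 CPM under 6NJ. Summed hippocampal markers were present in every library, at 582 to 930 CPM for dentate granule cells, 720 to 1050 CPM for CA1 and 1100 to 1270 CPM for CA2 and CA3. A further split lay within the 6J label: Lcn2, a secreted acute-phase protein, stood at 7.93 to 20.5 CPM in 4 of its libraries (32A, 32B, 34A and 34C) and at 0.108 and 0.114 CPM in 32C and 34B. The overall counts, and those of the main gene lists, are also given without those 4 libraries. The numbers in the codes, 32 and 34 for 6J and 38 and 40 for 6NJ, each belonged to 1 label, so anything shared by a number and the label cannot be told apart.

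Of 19647 genes tested, 535 (2.72%) differed between the labels after the cue at an adjusted p under 0.05, the threshold for a called gene below. Of these, 294 (1.5%) were higher and 241 (1.23%) lower under 6NJ. Counts of called members in the gene lists below are to be read beside these shares, and no list was tested as a set. All adjusted p-values of genes are from edgeR's quasi-likelihood test with Benjamini-Hochberg adjustment over the genes tested, unless DESeq2 is named. Without 40A, 533 of 19782 genes were called (2.69%), 290 higher (1.47%) and 243 lower (1.23%). The calls were not all the same genes: 418 were made both ways with the same sign, 117 were lost without 40A and 114 were gained among genes tested in both fits. Every one of the 535 kept its sign without 40A. That fit keeps all the other libraries, so a change of sign among called genes was unlikely from the start. The lost genes lay near the threshold, with a median adjusted p of 0.0637 and a highest of 0.106 without that library.

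Most of the differences were small. The median size of a called difference was 0.258 on the log2 scale (0.263 without 40A), 418 of the 535 were under 0.5, and 45 were over 1. The CPM ranges of the groups did not overlap for 342 of all genes tested (1.74%), 230 higher (1.17%) and 112 lower (0.57%), and for 237 of the called genes, 163 higher and 74 lower. The counts depended on single libraries of both labels. They fell to 183 higher and 108 lower without 32A, to 184 and 140 without 40B, and to 165 higher without 34C, while 408 were lower without 34B. Without the 4 libraries with high Lcn2, which left 2 of the 6J label, 38 of 20501 genes were called (0.185%), 23 higher (0.112%) and 15 lower (0.0732%). All 38 were among the 535, 529 of the 535 kept their sign, and the median size of the 535 was then 0.211. Whether each library stands for its own mouse is not stated in the labels, and the p-values cover no more than the variation among the libraries, which may be technical.

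**Figure D1:**
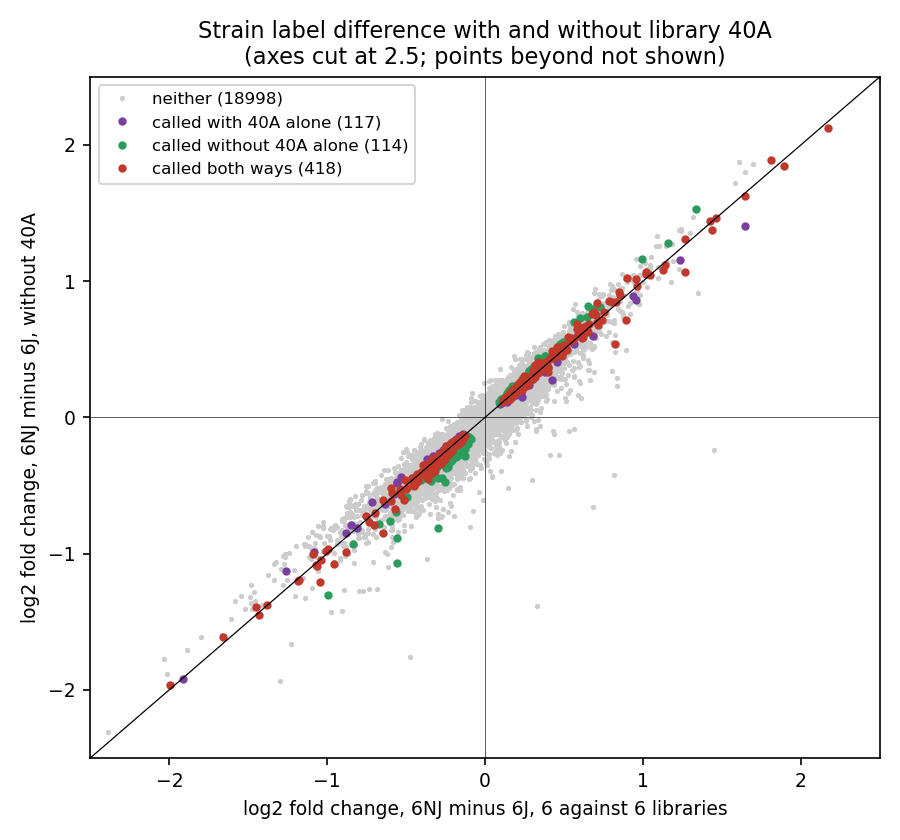
Log2 fold change (6NJ minus 6J, DH after the cue) of each gene tested in both fits, with all 12 libraries on the x axis and without library 40A on the y axis; each point is a gene and colours show in which fits it was called. The 418 genes called both ways, the 117 called with 40A alone and the 114 called without it lie near the line of equality, and points beyond 2.5 are not drawn.

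Of 9 gene models in a list of known substrain differences, 1 was higher and 4 were lower under 6NJ (2 and 4 without 40A). Gabra2 was 2.1-fold lower (log2 difference -1.07 ± 0.049 SE, adjusted p = 9.49e-19) and Nnt 1.99-fold lower (-0.99 ± 0.048, adjusted p = 3.27e-18). Wdfy1, a phosphoinositide-binding adaptor protein at chr1:79702262-79776143, was lower as well. Wdfy1 ranged from 44.7 to 48.9 CPM (median 47.6) under 6J and from 18.0 to 22.8 CPM (median 21.2) under 6NJ, with a log2 difference of -1.18 ± 0.046 (adjusted p = 3.13e-21). Without 40A the differences were -1.08 for Gabra2, -0.97 for Nnt and -1.20 for Wdfy1. A second, overlapping gene model of Nnt differed by -1.01. Crb1 was 3.71-fold higher under 6NJ (log2 1.89 ± 0.23, adjusted p = 8.15e-07; 1.84 without 40A).

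The other genes of that list did not all differ. Cyfip2, a regulator of actin at synapses with a coding change known in C57BL/6N, had means of 916 ± 53.7 CPM under 6J and 881 ± 46.1 CPM under 6NJ (SD, n = 6 each) and was not called (adjusted p = 0.631). The potassium channel gene Kcnc2 was not called either (-0.10, adjusted p = 0.403). Ide, the insulin-degrading enzyme at chr19:37268743-37337852, had an uneven pattern. It stood at 49.5 to 54.6 CPM in all libraries labelled 6J, at 73.1 to 75.6 CPM in 4 labelled 6NJ (38A, 38B, 40B and 40C), and at 51.1 and 49.9 CPM in 38C and 40A. The label groups thus overlapped, and Ide was called without 40A (log2 0.45, adjusted p = 0.0208) but not with it (0.38, adjusted p = 0.0587).

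Aim2, a sensor of cytosolic DNA at chr1:173350879-173466040, and Cort, which encodes the neuropeptide cortistatin, gave some of the clearest differences in the higher direction. Aim2 had a lowest, median and highest level of 1.03, 1.91 and 2.28 CPM under 6J and 3.74, 5.08 and 5.65 CPM under 6NJ, a 2.69-fold difference (log2 1.43 ± 0.14, adjusted p = 6.62e-09). It was the only called gene among 21 interferon-inducible genes. Ncald, which encodes the calcium sensor neurocalcin delta, was higher, with medians of 459 and 616 CPM (0.41 ± 0.048, adjusted p = 5.42e-07). Acvr1c, an activin and nodal receptor chosen after its values were seen, ranged from 15.8 to 18.4 CPM under 6J and from 22.6 to 31.9 CPM under 6NJ (0.56 ± 0.080, adjusted p = 2.08e-05). In the lower direction stood Tmem181b-ps, a transcribed pseudogene (54.3 to 62.0 CPM against 23.3 to 30.7 CPM, -1.06 ± 0.080), the unnamed model AC102496.1 (-1.38 ± 0.18) and Tmem181c-ps (1.93 ± 0.403 against 0.297 ± 0.168 CPM), whose reads may be shared with close copies. Smaller and lower were Zbtb40, a zinc finger protein (-0.60 ± 0.10, adjusted p = 0.000451), Zfp369 (-0.26), the kinase gene Cdkl2 (-0.28) and Ifrd1 (-0.20). All of these differences were called without 40A as well, where they were 1.44 for Aim2, 0.43 for Ncald, 0.57 for Acvr1c and -1.10 for Tmem181b-ps.

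**Figure D2:**
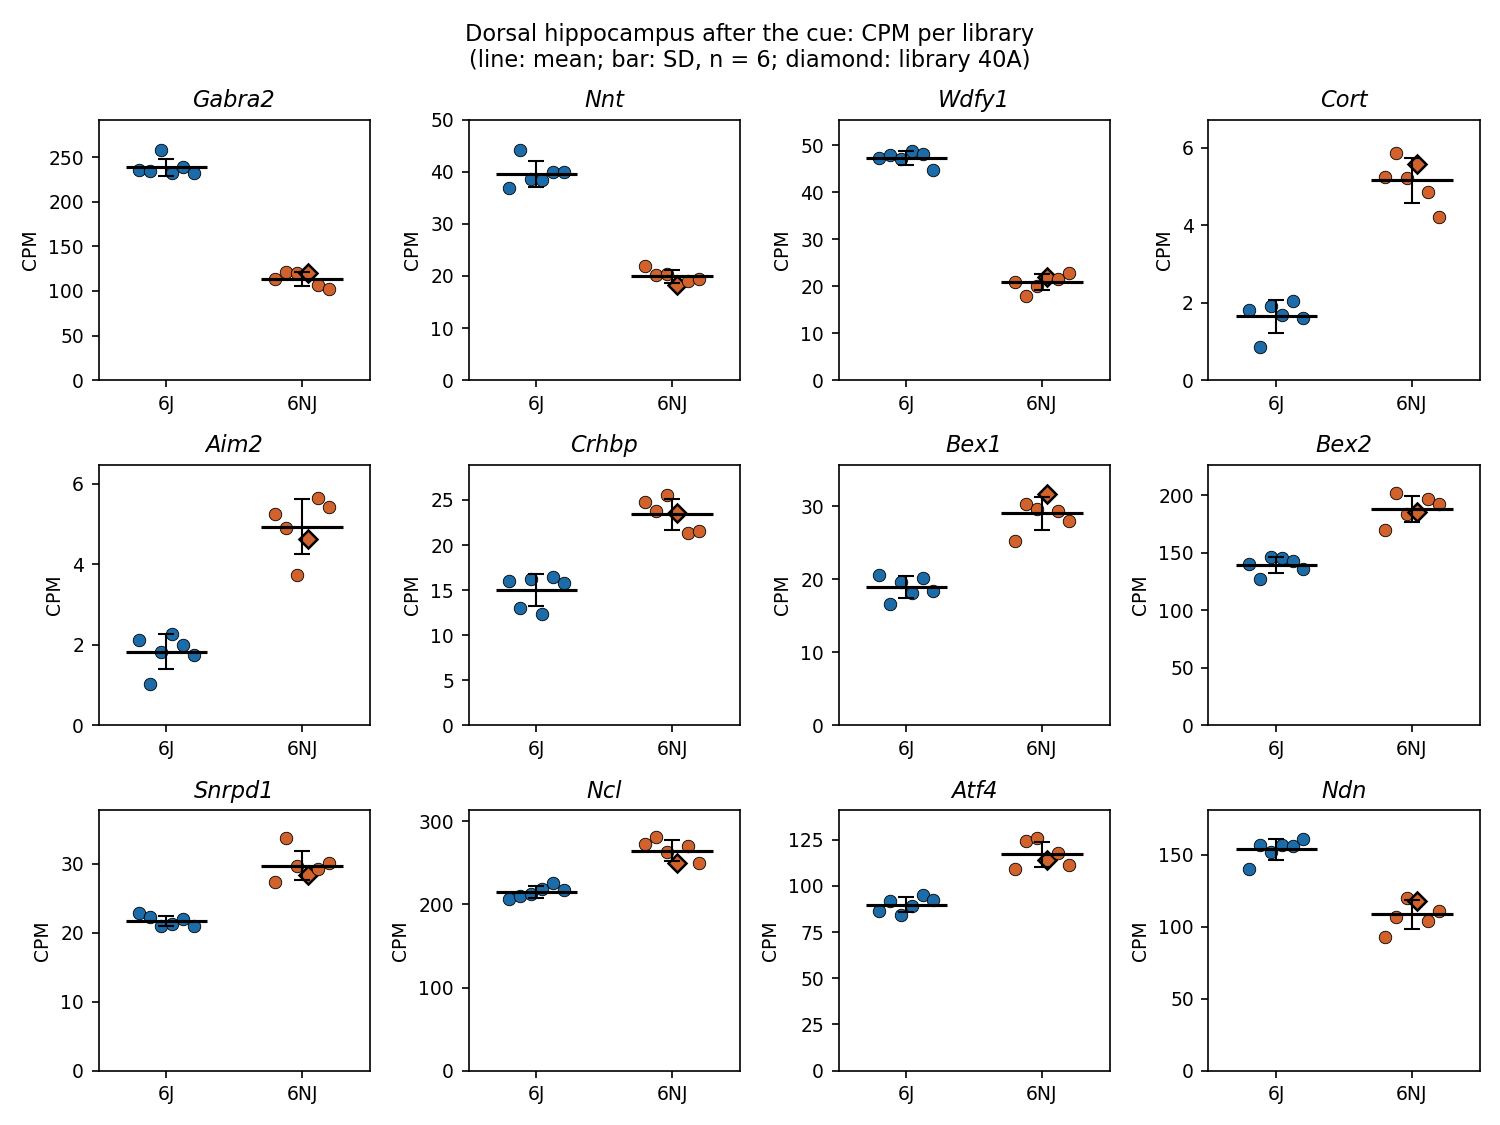
CPM of 12 called genes in each library of DH after the cue, by strain label; lines are means, bars SD (n = 6), and the diamond is library 40A. In all 12 genes the 6 libraries labelled 6NJ lie apart from the 6 labelled 6J, and 40A lies with the others of its label.

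The largest fold in the higher direction among all genes tested was that of mt-Tg, 1 of 3 neighbouring genes of the mitochondrial genome that were called higher. For the 1 of them with a tested transcript no difference was called there. The transfer RNA gene mt-Tg was at 0.0265 to 0.117 CPM under 6J and 2.91 to 4.71 CPM under 6NJ (log2 6.20 ± 0.22, adjusted p = 4.01e-22). The next gene, mt-Nd3, a subunit of respiratory complex I, was at 0.2 to 2.03 CPM and 4.52 to 6.48 CPM (3.26 ± 0.35, adjusted p = 1.78e-07). The third, mt-Tr, was at 0 to 0.116 CPM and 0.393 to 0.685 CPM (4.35 ± 0.51). Without 40A the differences were 6.24, 3.30 and 4.39. They occupy positions 9391 to 9875 of the mitochondrial genome. These gene levels were far below those of abundant mitochondrial messengers such as mt-Nd1, with means of 7730 and 8210 CPM. In the estimated transcript counts, mt-Nd3 had 832 ± 68.0 CPM under 6J and 902 ± 94.5 CPM under 6NJ and was not called (0.12 ± 0.11, adjusted p = 0.91). Gm28438, an unprocessed pseudogene at chr1:24612775-24613119 chosen after its values were seen, went opposite ways: -3.98 in gene counts (adjusted p = 0.00759) and 4.55 in transcript counts (adjusted p = 0.291). Reads of genes with close copies can be counted in different ways by the 2 methods, so these values are uncertain. None of the 12 other protein-coding mitochondrial genes was called.

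Genes of the brain-expressed X-linked (Bex and Tceal) cluster were higher under 6NJ. These small proteins of the X chromosome act as adaptors in transcription and in neurotrophin signalling, and they lie together at chrX:135208687-136711478. Of 10 tested, 7 were called higher and 0 lower, with a median log2 difference of 0.25 against -0.002 over all genes tested. Without 40A the count was 6 higher, and without the 4 libraries with high Lcn2 it was 2 (median 0.19). Bex1 ranged from 16.7 to 20.6 CPM (median 19) under 6J and from 25.2 to 31.7 CPM (median 29.6) under 6NJ, a 1.53-fold difference (log2 0.62 ± 0.061, adjusted p = 9.01e-09). Bex2 ranged from 127 to 146 CPM (median 142) and from 170 to 202 CPM (median 188), a difference of 0.43 ± 0.050 (adjusted p = 3.05e-07). Without 40A these were 0.59 and 0.44. The groups did not overlap for either gene, nor for Tceal8 (0.28), Tceal9 (0.23) and Tceal1 (0.30).

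The smaller members behaved less evenly. Tceal6 (0.22, adjusted p = 0.0245) and Tceal5 (0.17, adjusted p = 0.0327) had groups that overlapped, and Tceal5 was not called without 40A (adjusted p = 0.0509). Tceal9 was not called when 34C was left out, and over the 12 fits that each left out 1 library Tceal6 was called in 8 and Tceal5 in 4. Bex3 (0.09), Bex4 (0.39, adjusted p = 0.0586) and Tceal3 (0.15, adjusted p = 0.0563) were not called, although the Bex4 transcript was (means 9.44 and 12.5 CPM, adjusted p = 7.07e-05). Between the first and last gene of the cluster, 0 of the 8 other genes tested was called. Across the X chromosome, 18 of 655 genes were higher (2.75%).

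Atf4 and genes of its amino acid programme were higher under 6NJ as well. Atf4 is the transcription factor made when amino acids run short or proteins misfold, and its targets make amino acids, load them onto transfer RNAs and degrade glutathione. Of 28 genes, 9 were called higher and 0 lower, with a median of 0.15, and 26 of the 28 had a positive difference. Without 40A, 7 were called. Without the 4 libraries with high Lcn2, 2 were called and the median was 0.12. Atf4 itself, at chr15:80255184-80257541, ranged from 84.2 to 95.1 CPM (median 90.6) under 6J and from 109 to 126 CPM (median 116) under 6NJ (0.38 ± 0.049, adjusted p = 2.79e-06; 0.39 without 40A). Every library labelled 6NJ was above every library labelled 6J.

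Among the targets, the largest called difference was in Chac1, which breaks down glutathione. It ranged from 2.39 to 3.4 CPM under 6J and from 3.69 to 5.41 CPM under 6NJ, 1.57-fold higher (0.65 ± 0.10, adjusted p = 8.88e-05). Asns, asparagine synthetase, ranged from 59.3 to 66.4 and from 72.9 to 79.8 CPM (0.27 ± 0.047, adjusted p = 0.000685). Mthfd2, an enzyme of mitochondrial folate metabolism, ranged from 4.79 to 6.29 and from 7.47 to 8.51 CPM (0.44 ± 0.076, adjusted p = 0.000431). These were ranges without overlap. Without 40A the differences were 0.63 for Chac1, 0.25 for Asns and 0.45 for Mthfd2. The transfer RNA synthetases Cars (0.27), Gars (0.22) and Nars (0.15) were called with and without 40A. The synthetase Sars (0.14, adjusted p = 0.0408) and Pycr1, which makes proline (0.59, adjusted p = 0.0476), were not called without it (adjusted p = 0.0843 and 0.056). Not called were, among others of the list, Ddit3, which encodes the pro-apoptotic factor CHOP (-0.08, adjusted p = 0.714), and Trib3 (0.66, adjusted p = 0.196, at means of 0.212 and 0.339 CPM). None of 21 endoplasmic reticulum chaperones was called (median -0.16). Without the 4 libraries with high Lcn2 their median was 0.105, again with 0 called.

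Atf4 and its partner C/EBP proteins bind composite sites that begin with TGATG and continue to AA. Promoter windows from RefSeq (GRCm38.p6), running from 250 bases before to 50 bases after each start site, were searched on both strands for TGATGNAA, where N is any base. The letters occurred in 8 of 23 Atf4 list members with a window (34.8%) and in 4 of the 7 called ones, against 2.82% of 12850 tested genes with a window and 3.97% of all 32851 windows. The list is made of targets of Atf4, so a share above that of all genes could be foreseen. It does not bear on the difference between the labels, and called members were not tested against the others. The 4 matches in called genes are shown because they place the motif in the promoters of the genes described above. Each is read on the strand of its gene, 5′ to 3′, with the match in capitals. A match describes letters only, and binding was not measured.
Asns, chr6:7693210-7693262, minus strand: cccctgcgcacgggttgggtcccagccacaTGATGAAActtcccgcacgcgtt
Chac1, chr2:119351019-119351086, plus strand: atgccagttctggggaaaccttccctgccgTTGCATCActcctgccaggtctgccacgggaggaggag
Gars, chr6:55037941-55038000, plus strand: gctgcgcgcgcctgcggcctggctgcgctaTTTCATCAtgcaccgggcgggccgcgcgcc
Pycr1, chr11:120643814-120643881, minus strand: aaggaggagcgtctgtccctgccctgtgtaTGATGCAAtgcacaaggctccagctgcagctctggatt
In Asns and Pycr1 the motif read forward, and in Chac1 and Gars it read on the opposite strand. It began 23 bases before the start site in Asns, 30 in Gars, 103 in Pycr1 and 193 in Chac1.

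A few genes of the nucleolus were higher under 6NJ. Of 23 nucleolar genes, 4 were called higher and 0 lower with and without 40A, and 2 higher without the 4 libraries with high Lcn2, while the median was 0.04. Ncl, which encodes nucleolin, ranged from 206 to 226 CPM (median 214) under 6J and from 250 to 281 CPM (median 267) under 6NJ (0.30 ± 0.036, adjusted p = 5.42e-07; 0.32 without 40A). Khdrbs1, an RNA-binding protein (0.25), Rrs1, a ribosome assembly factor (0.28), and Npm1, nucleophosmin (0.18), were the other 3. An annotated retained-intron transcript, Ncl-202, was called (means 121 and 164 CPM, 0.44 ± 0.052, adjusted p = 2.69e-06), while the coding transcript Ncl-201 was not called (77.3 and 82.9 CPM, adjusted p = 0.343). Whether the 2 transcripts differ from each other was not tested. Snrpd1, a core protein of spliceosomal particles and among the 12 higher genes with the smallest p, ranged from 21.0 to 22.8 and from 27.4 to 33.7 CPM (0.45 ± 0.054; 0.47 without 40A). Of 61 cytosolic ribosomal protein genes, 1 was called, Rpl4 (0.19, adjusted p = 0.049), and it was called in 3 of the 12 fits that left out 1 library, although 59 of the 61 had a positive sign (median 0.08, 0.11 without 40A). Of 36 nuclear-encoded complex I subunits, 0 were called (median 0.08), and of 15 ATP synthase genes 1, the catalytic beta subunit Atp5b (0.16, adjusted p = 0.0196; called in 9 of the 12 fits that left out 1 library). Of 32 gene models of NADPH and antioxidant enzymes, the 2 called were the models of Nnt, and of 25 heat shock genes 0 were called.

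Of 31 genes of neuropeptides and their partners, 4 were called, all higher under 6NJ. Without 40A the counts were 4 higher and 1 lower, and without the 4 libraries with high Lcn2 they were 1 and 0. Cort, at chr4:149125034-149126763, is made by a subset of GABAergic interneurons. It ranged from 0.85 to 2.03 CPM (median 1.74) under 6J and from 4.21 to 5.86 CPM (median 5.22) under 6NJ, 3.13-fold higher (1.65 ± 0.17, adjusted p = 9.43e-09). Crhbp, which binds and buffers corticotropin-releasing hormone, ranged from 12.4 to 16.4 CPM and from 21.3 to 25.6 CPM (0.64 ± 0.091, adjusted p = 1.58e-05). Without 40A the differences were 1.62 and 0.64. For both genes every library labelled 6NJ was above every library labelled 6J.

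Library 40A mattered for several of the others. Npy, neuropeptide Y, ranged from 25.1 to 32.2 CPM under 6J and from 39.7 to 45.1 CPM in 5 libraries labelled 6NJ, while 40A had 31.9 CPM; the difference was 0.46 ± 0.092 (adjusted p = 0.00409) and 0.52 without 40A. Tac1, the precursor of substance P, was called with 40A (0.46, adjusted p = 0.0441) and not without (adjusted p = 0.0871). The reverse held for Trh, the thyrotropin-releasing hormone gene (1.53, adjusted p = 0.0188 without 40A and 0.0565 with it), and for the kappa opioid receptor gene Oprk1. Oprk1 stood at 2.09 CPM in 40A and at 0.421 to 0.941 CPM in the other libraries labelled 6NJ, against 0.839 to 1.26 CPM under 6J. Its difference was -0.30 (adjusted p = 0.621) with 40A and -0.82 (adjusted p = 0.0443) without. Sst, the interneuron peptide closest to Cort, had medians of 119 and 139 CPM and was not called (0.27, adjusted p = 0.109). Of 20 interneuron markers, 1 was called, Npy.

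Genes induced by neuronal activity gave no called difference among the rapid members. Of 35 rapid immediate early genes, 0 were called, with a median of -0.07 and a range of -0.70 to 0.30, and the count was also 0 without 40A. A positive difference was found in 11 of the 35. Without the 4 libraries with high Lcn2 the count was 0 and the median 0.01. In VH after the cue, 3 were called higher and 0 lower (median 0.16). The CPM ranges in DH did not overlap for 1 higher and 2 lower genes, against 1.17% higher and 0.57% lower over all genes tested. Fos ranged from 26.6 to 43.7 CPM (median 29.2) under 6J and from 24.1 to 31.9 CPM (median 26.9) under 6NJ. Arc, a regulator of AMPA receptors, ranged from 336 to 443 CPM and from 213 to 331 CPM, without overlap, but was not called (-0.36 ± 0.12, adjusted p = 0.0897). Egr2 likewise did not overlap (8.88 to 14.3 against 6.98 to 8.0 CPM, adjusted p = 0.098), and Egr1 had medians of 240 and 202 CPM (adjusted p = 0.193). Arc without 40A differed by -0.28 (adjusted p = 0.174). A difference in these genes was thus not shown, and neither was its absence. Genes of synaptic transmission gave few calls as well. Gabra2 was the 1 called among 12 GABA-A subunits, and 0 were called among 28 glutamate receptor and auxiliary subunits, 26 potassium channel genes, 12 serotonin receptor genes and 25 synaptic vesicle genes.

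Of 21 later activity-induced genes, 2 were higher and 3 lower. Without 40A the counts were 2 and 2, and without the 4 libraries with high Lcn2 both were 0. Bdnf, the brain-derived neurotrophic factor, ranged from 43.2 to 54.2 CPM (median 50.9) under 6J. Under 6NJ it was at 62.1 to 76.0 CPM in 5 libraries and at 52.0 CPM in 40A (0.43 ± 0.084, adjusted p = 0.00302; 0.49 without 40A). Scg2, a granule protein and source of secretoneurin, was higher (0.23, adjusted p = 0.0252), and was called in 6 of the 12 fits that left out 1 library. The lower genes include 2 brakes on the ERK kinase pathway, Dusp6 (80.6 to 105 against 61.5 to 86.9 CPM, -0.39 ± 0.085, adjusted p = 0.00787; -0.35 without 40A) and Spred1 (-0.23, adjusted p = 0.00379; -0.22 without 40A). The scaffold gene Homer1 (-0.29, adjusted p = 0.049) was not called without 40A (adjusted p = 0.0875), nor when any of several other libraries was left out. Srf, a transcription factor of immediate early genes, belongs to none of the gene lists and was named outside the rule for named genes. It differed by -0.19 (adjusted p = 0.0196, and 0.0504 without 40A).

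Oligodendrocyte markers were higher under 6NJ in 2 called cases and shared 1 sign. All 13 had a positive difference, between 0.28 and 0.66 with a median of 0.35, and the count of 2 was the same without 40A (median 0.40). Without the 4 libraries with high Lcn2 the count was 0 and the median 0.37, with adjusted p = 0.409 for Mog and 0.608 for Opalin. Mog, a myelin surface protein, ranged from 59.9 to 88.8 CPM (median 71.3) under 6J and from 89.8 to 114 CPM (median 103) under 6NJ (0.48 ± 0.11, adjusted p = 0.0101). Opalin, an oligodendrocyte membrane protein, ranged from 17.5 to 42.2 and from 42.3 to 50.4 CPM (0.66 ± 0.14, adjusted p = 0.00944). Without 40A the differences were 0.52 and 0.68. Mbp, myelin basic protein, had medians of 3300 and 4500 CPM and was not called (adjusted p = 0.108). The summed level of the list was 6680 to 9460 CPM under 6J and 8570 to 11700 CPM under 6NJ. In bulk tissue, more or fewer cells of a type and more or less RNA per cell cannot be told apart.

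Neuronal subfields showed little. Of 12 dentate granule cell markers 1 was called, the synaptic organizer C1ql2 (0.58, adjusted p = 0.0372; medians 56.5 and 83.8 CPM; called in 5 of the 12 fits that left out 1 library), and of 9 CA1 markers 0 were called (median -0.20, all 9 negative). Of 16 CA2 and CA3 markers, Bok, a Bcl-2 family member, was called (57.1 to 65.8 against 67.7 to 96.3 CPM, 0.52 ± 0.10, adjusted p = 0.00389), and without 40A also Pcp4, a calmodulin-binding peptide (0.34, adjusted p = 0.0222; 40A had 88.4 CPM and the other libraries labelled 6NJ 113 to 124 CPM). Of 14 astrocyte markers, the gap junction gene Gjb6 was lower (-0.46, adjusted p = 0.0136), but not called when 32A, at 79.9 CPM, was left out. All 16 choroid plexus markers were negative (median -1.04) and 0 were called. Their summed level was 210 to 12600 CPM under 6J and 254 to 5430 CPM under 6NJ. With their mean level as a covariate, 623 genes were called (3.17%), 322 higher (1.64%) and 301 lower (1.53%), and 534 of the 535 were among them. Markers of blood were also all negative (8 tested, median -0.85, 0 called). No marker was called among 8 of oligodendrocyte precursors, 14 of microglia, 16 of endothelium, 16 of mural cells, 10 of ependyma, 15 of neocortex and 10 of thalamus.

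**Figure D3:**
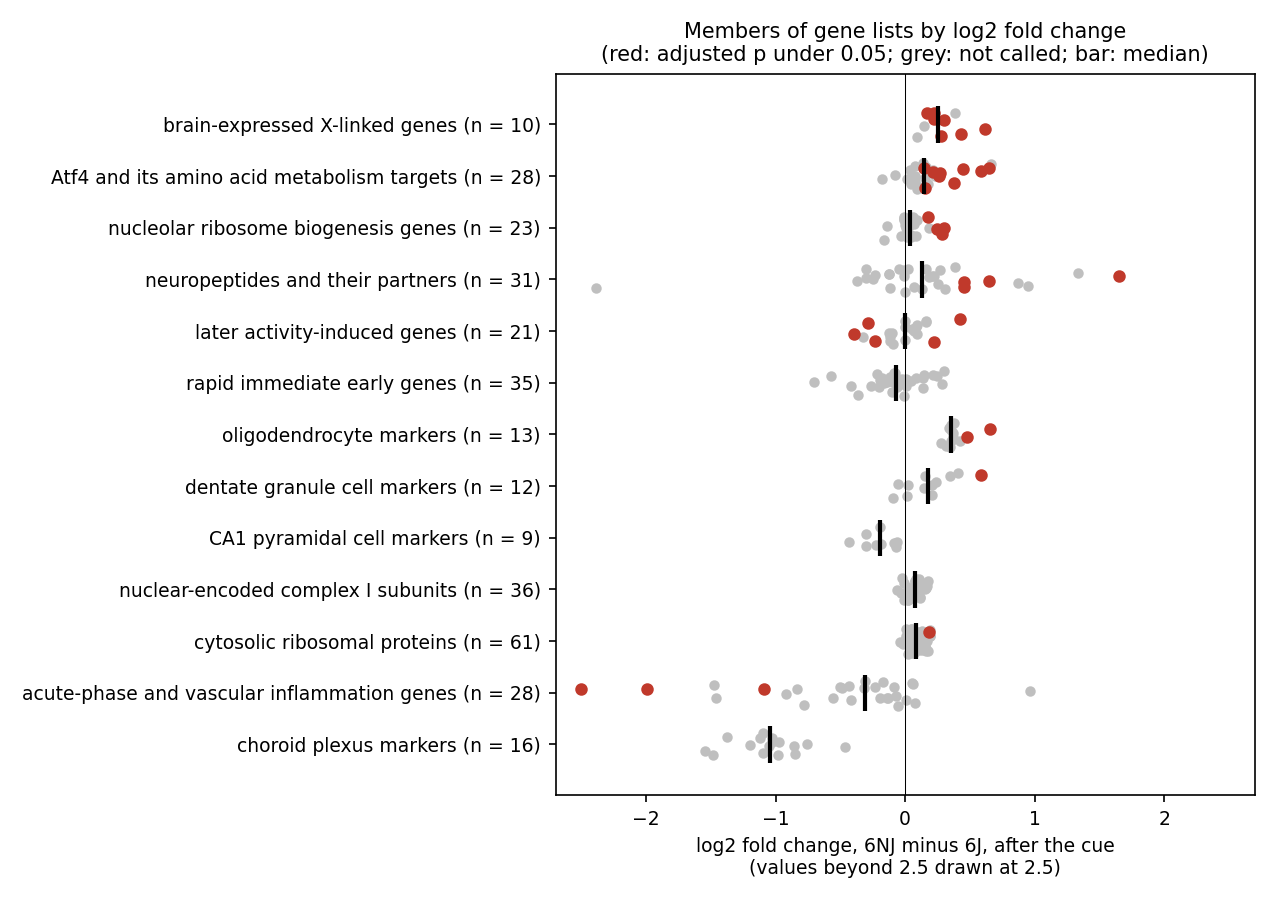
Log2 fold change (6NJ minus 6J) in DH after the cue of the tested members of 13 gene lists; each point is a gene, red where called, and the black bar is the median. The Bex and Tceal genes and oligodendrocyte markers lie to the right of 0 with medians of 0.25 and 0.35, and acute-phase and choroid plexus genes lie mostly to the left.

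A few acute-phase and vascular inflammation genes were lower under 6NJ, with their high values in the 4 libraries labelled 6J named above. Such genes are switched on in vessels and glia by circulating cytokines. Of 28 tested, 0 were higher and 3 lower (4 lower without 40A), with a median of -0.31. Lcn2 was at 20.5, 13.8, 17.6 and 7.93 CPM in 32A, 32B, 34A and 34C and at 0.0277 to 0.607 CPM under 6NJ (log2 -5.29 ± 1.1, adjusted p = 0.00621; -5.15 without 40A). Lrg1, an acute-phase glycoprotein, was at 1.83 to 3.04 CPM in the same 4 libraries, at 0.46 and 0.428 CPM in 32C and 34B, and at 0.332 to 0.869 CPM under 6NJ (-2.00, adjusted p = 0.0189; -1.96 without 40A). Icam1, a leukocyte adhesion molecule, reached 11 CPM in 34C against 1.41 to 2.38 CPM under 6NJ (-1.09, adjusted p = 0.0211; -1.004 without 40A). Without 34C Icam1 was not called, and without 32A Lrg1 was not called. Socs3, a cytokine feedback inhibitor, was called only without 40A (-0.93, adjusted p = 0.0479). With the 4 libraries left out, the differences were 1.16 for Lcn2, 0.07 for Lrg1 and 0.12 for Icam1, the list's median was 0.08, and 0 were called. The 4 libraries were picked by their Lcn2 level, so the loss of its difference followed from that choice. The same limit holds for genes that were high in the same libraries, such as Lrg1. Lcn2 was also lower under 6NJ in DH of the home cage (-5.27, adjusted p = 0.0459) and in VH after the cue (-5.14, adjusted p = 0.0189), and was not called after shock and cue (0.92, adjusted p = 0.875).

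**Figure D4:**
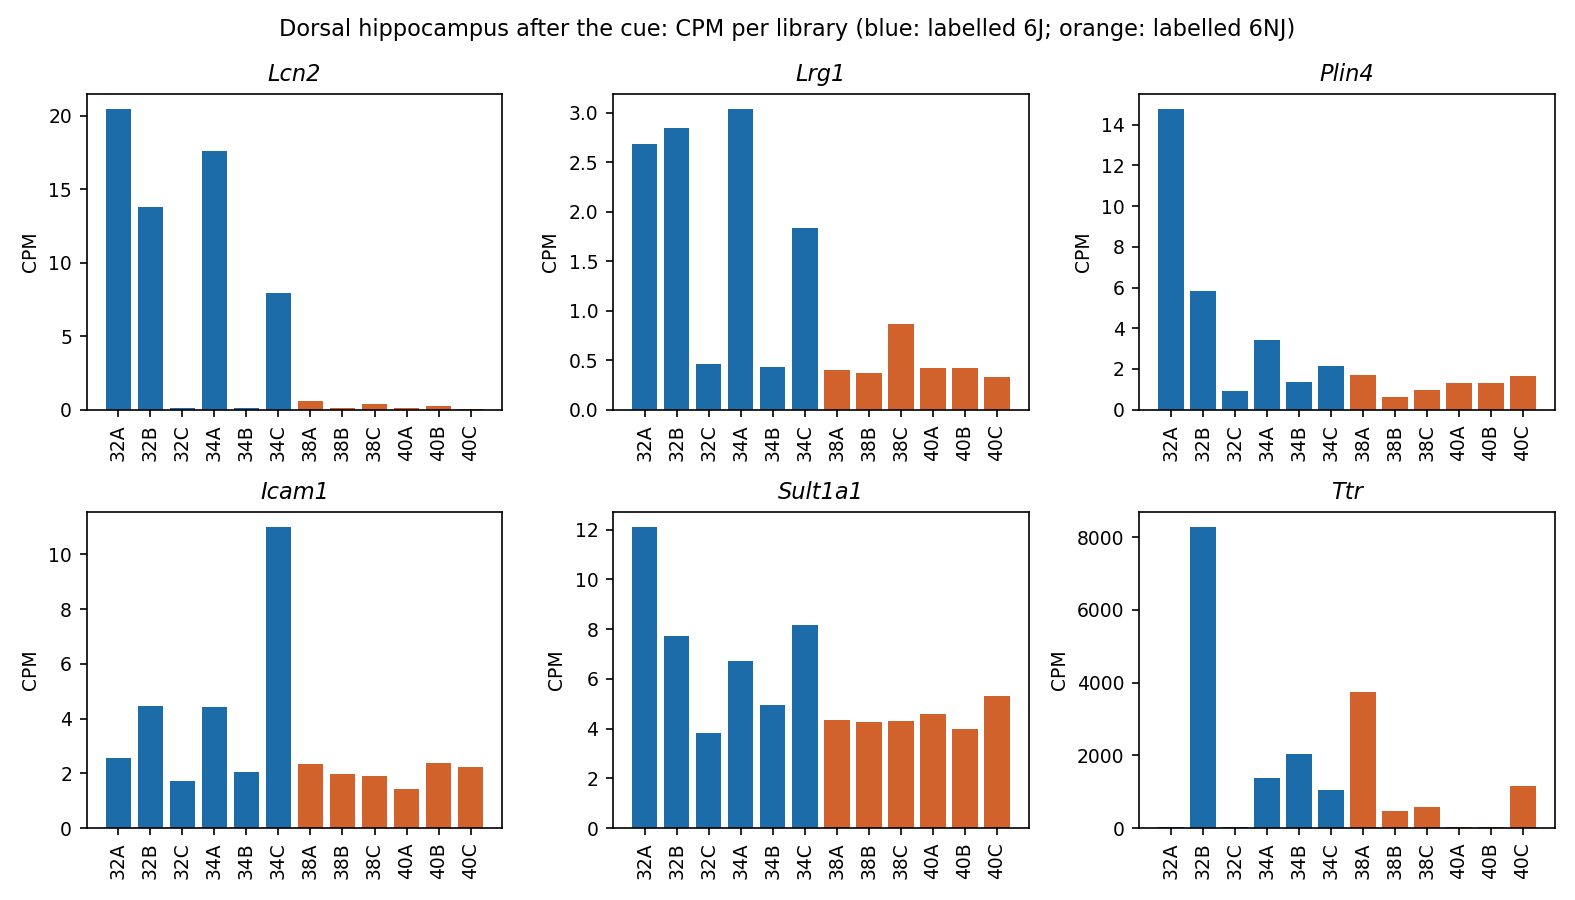
CPM of Lcn2, Lrg1, Plin4, Icam1, Sult1a1 and Ttr in each of the 12 libraries of DH after the cue, with bars in blue for libraries labelled 6J and orange for 6NJ. Libraries 32A, 32B, 34A and 34C carry the high Lcn2 and Lrg1 values, and Ttr follows other libraries, with 8280 CPM in 32B.

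A few glucocorticoid-responsive and clock genes were lower too, beside 1.23% of all genes tested. Of 23 glucocorticoid targets, 3 were lower (2 without 40A, 0 without the 4 libraries with high Lcn2): Lcn2 itself, the lipid droplet gene Plin4 (-1.91, adjusted p = 0.0481; 14.8 CPM in 32A against 0.921 to 5.84 CPM in the other libraries labelled 6J) and the sulfotransferase gene Sult1a1 (-0.70, adjusted p = 0.0196). Plin4 was not called without 40A (adjusted p = 0.0678). Without the libraries with high Lcn2, Plin4 differed by 0.15 and Sult1a1 by 0.02. Of 19 circadian clock genes, Per2 (35.8 to 56.3 against 32.9 to 47.3 CPM, -0.35, adjusted p = 0.0149) and Tef (357 to 400 against 320 to 347 CPM, -0.16, adjusted p = 0.0178) were lower, also without 40A, and 0 were called without the libraries with high Lcn2. Per2 was not called without 32B, nor Tef and Sult1a1 without 40B or 32A. The cold-inducible RNA-binding protein gene Rbm3 was higher (0.37, adjusted p = 0.0247), and was called in 7 of the 12 fits that left out 1 library.

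Of 26 imprinted genes, 1 was called higher and 3 lower (0 and 4 without 40A, 0 and 1 without the 4 libraries with high Lcn2), at 2 loci. Ndn, or necdin, a growth suppressor expressed from the paternal chromosome at chr7:62346569-62350262, ranged from 140 to 161 CPM (median 157) under 6J and from 92.7 to 120 CPM (median 109) under 6NJ (-0.50 ± 0.076, adjusted p = 7.69e-05; -0.53 without 40A). Its neighbour Mkrn3 differed the other way (1.04 ± 0.206 against 1.55 ± 0.155 CPM, 0.57, adjusted p = 0.0449), and was not called without 40A (adjusted p = 0.0712). At the maternally expressed Meg3 locus on chr12, the noncoding RNA Mirg (24.7 to 29.7 against 15.3 to 22.7 CPM, -0.43 ± 0.087, adjusted p = 0.0039; -0.48 without 40A) and Rian (-0.23, adjusted p = 0.0366; called in 6 of the 12 fits that left out 1 library) were lower. Meg3 was at 3960 CPM in 40A and 2200 to 3180 CPM in the other libraries labelled 6NJ, against 2890 to 3660 CPM under 6J, and was called only without 40A (-0.32, adjusted p = 0.0419).

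The same contrast was set beside those of the other DH groups of the series, which share no library with it. In the home cage, 183 of the 19647 genes were called in DH (0.931%), 113 higher (0.575%) and 70 lower (0.356%). Of these, 114 were also called after the cue with the same sign, which is 62.3% of the home cage calls and 21.3% of the cue calls, and 0 had the opposite sign. After shock and cue, 421 were called (2.14%), 282 higher (1.44%) and 139 lower (0.707%), and 146 were shared (34.7% of those and 27.3% of the cue calls), again 0 with opposite sign. In all 3 conditions 86 genes were called with the same sign. They include Gabra2 (-1.07 after the cue, -1.24 in the home cage and -1.03 after shock and cue), Bex1 (0.62, 0.40 and 0.45), Atf4 (0.38, 0.40 and 0.46), Cort (1.65, 1.40 and 1.42) and Crhbp (0.64, 0.83 and 0.64).

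Some 361 genes were called after the cue and in neither other condition. Of all 535, however, 517 had the same sign in the home cage and 488 after shock and cue, and a call in 1 condition alone does not show a difference between conditions. When that difference was tested, 0 of 19647 genes passed for cue against home cage (edgeR; smallest adjusted p 0.807, 621 genes at an unadjusted p under 0.05, 0 with DESeq2). For cue against shock and cue, 0 passed (smallest adjusted p 0.132, 1369 genes at an unadjusted p under 0.05). DESeq2 called 1 there, Zbtb40, which differed by -0.60 after the cue, -0.09 in the home cage and 0.16 after shock and cue. Its high values lay in 2 libraries, 32A and 32B, at 17.9 and 17.8 CPM against 11.4 to 12.6 CPM in the other 4 labelled 6J. Oligodendrocyte markers had medians of 0.19 in the home cage and 0.09 after shock and cue, and acute-phase genes -0.19 and -0.08.

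In the ventral hippocampus after the cue, from libraries that carry the same codes, 344 of 19597 genes were called (1.76%), 161 higher (0.822%) and 183 lower (0.934%). Of these, 173 were also called in DH with the same sign (50.3% of the VH calls and 32.3% of the DH calls), and 0 with the opposite sign. Without code 40A the VH counts were 90 higher and 85 lower. Cort (1.17), Bex1 (0.46), Atf4 (0.37), Ndn (-0.79) and Bdnf (0.56) were called in VH too. Acvr1c was called in DH (0.56) and not in VH (0.05, adjusted p = 0.823), and Dusp6 likewise (-0.39 and 0.00). Tested directly, 0 of 20255 genes differed in their label difference between the regions (edgeR; smallest adjusted p 0.311, 681 at an unadjusted p under 0.05), and limma-voom with the code as a random effect also called 0.

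**Figure D5:**
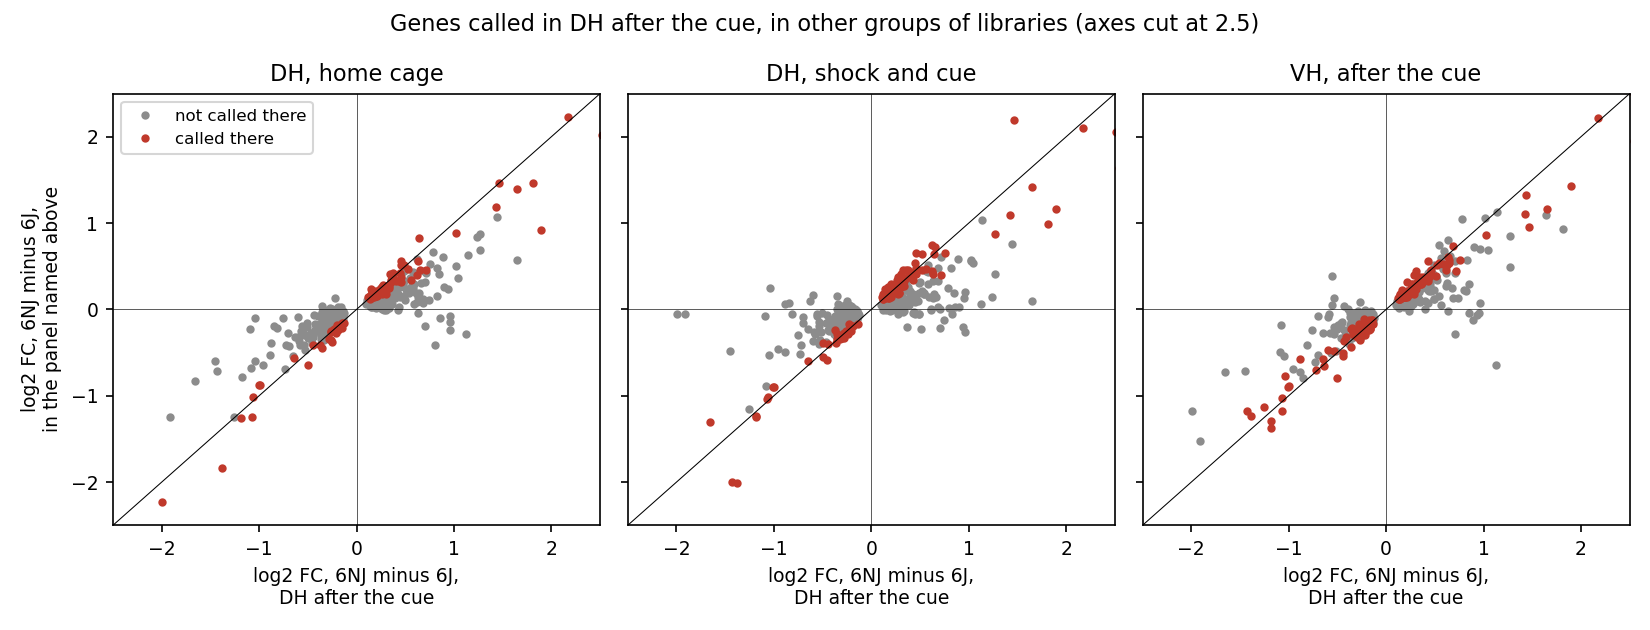
Log2 fold change (6NJ minus 6J) of the genes called in DH after the cue (x axis) against the same contrast in DH of the home cage, DH after shock and cue, and VH after the cue (y axes); each point is a gene, red where also called there. The genes called in both, 114, 146 and 173 in the panels from left to right, share their sign, and points beyond 2.5 are not drawn.

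Transcripts were compared from the estimated counts. Of 56523 tested, 172 (0.304%) were called, 122 higher (0.216%) and 50 lower (0.0885%), and 146 of them also without 40A. They came from 150 genes, 94 of which were called from gene counts. Some called transcripts had identical values in every library, such as Wdfy1-204 and Wdfy1-205, so the 172 are not all separate results. At Gabra2 the coding transcript Gabra2-203 was lower (164 ± 5.89 against 72.6 ± 4.48 CPM, SD, n = 6 each; -1.17 ± 0.064), while the retained-intron transcript Gabra2-202 was higher (0.491 ± 0.208 against 7.48 ± 1.7 CPM, 3.92 ± 0.35, adjusted p = 3.27e-09). At Nnt, Nnt-206 was lower (30.7 ± 3.05 against 12.4 ± 2.33 CPM, -1.31 ± 0.098), and the shorter Nnt-201 was not called (5.14 ± 2.22 against 5.46 ± 1.18 CPM, adjusted p = 0.996). Without 40A the differences were -1.18 for Gabra2-203, 3.86 for Gabra2-202 and -1.26 for Nnt-206. Whether transcripts of a gene differed from each other in this was not tested. Entpd4b-204, from a gene with a near-identical neighbour, Entpd4, ranged from 21.3 to 24.6 CPM under 6J and from 40.9 to 49.5 CPM under 6NJ (0.996 ± 0.071, adjusted p = 1.69e-11; 0.999 without 40A). The transcript Entpd4-206 of the neighbour had the same value in every library, so this level cannot be assigned to Entpd4b alone. In gene counts Entpd4b had 0.279 ± 0.183 CPM under 6NJ and 0.224 ± 0.363 CPM under 6J and was not called (adjusted p = 0.916), and reads of the pair may be divided in either table.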

How the data were processed

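Per the labels' protocols, RNA was purified with Trizol and columns and made into stranded mRNA libraries for single-end reads of 75 bp. The authors deposited whole-number read counts for 55401 genes and estimated counts for 119414 transcripts, neither normalized. HISAT2, featureCounts, kallisto, FastQC, DESeq2 and GRCm38 are named in the submitters' processing notes; versions, strand setting and filters were not stated there. Groups came from the labels. Coordinates and symbols (55141 genes) came from GENCODE vM21. The 36 DH libraries were fitted together in edgeR 4.0.16 (R 4.3.3): TMM, filterByExpr by group, robust glmQLFit, quasi-likelihood F-test, Benjamini-Hochberg adjustment, threshold 0.05. The common biological coefficient of variation was 0.111. A standard error is the log2 difference divided by the square root of F. Transcript counts were rounded. CPM used TMM-scaled library totals. Chi-square per degree of freedom between libraries of a group was at least 8.78, so none was deposited under several names. Scripts were tested on simulated counts.

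The comparison, the 40 gene lists and the rule for named genes (12 higher and 12 lower with the smallest p, 5 and 5 with the largest fold, members of the lists, and members whose call changes with 40A) were chosen with earlier results of these data known. The rankings by p and by fold left out symbols made of Gm and digits or ending in Rik. The ranking by fold also required a mean of at least 1 CPM in the higher group. Alternatives were RLE size factors, other filters, DESeq2 1.42.0, the 12 libraries alone, leaving out libraries or code numbers, limma-voom (limma 3.58.1), and a choroid plexus covariate.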

Additional observations from a re-analysis of the deposited data

Results flagged for a closer look

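In groups of 6 libraries, a value was listed when its gap to the nearest other library exceeded 0.625 of the group's range (Dixon's 95% limit). Of 182 gene and label groups examined, 26 met this, where chance gives about 5%, or 9.1, for genes chosen without regard to single libraries. The genes examined were those named in the text, some of them because their call changes with 40A. The count of 26 is therefore not a test against chance. In library 40A, CPM stood apart for Oprk1 (2.09), Pcp4 (88.4) and Entpd4b (0.627). Within the 6J label, 32A stood apart for Gjb6 (79.9), Zfp369 (49.0), Plin4 (14.8), Entpd4b (0.96) and mt-Tr (0.116). Library 32B did so for Ttr (8280), AC102496.1 (9.21), Ide (54.6), Ifrd1 (35.2), Cort (0.85) and mt-Tg (0.117). Library 32C was high for Gabra2 (258) and low for Mthfd2 (4.79). Library 34A was high for Fos (43.7), Egr2 (14.3) and mt-Nd3 (2.03), 34B for Rbm3 (43.9) and 34C for Icam1 (11). Under 6NJ, Ttr was high in 38A (3740), Npas4 low in 38B (17.0), Lrg1 high in 38C (0.869), Pycr1 high in 40B (2.3) and Per2 high in 40C (47.3). The causes were not tested.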

How the results depend on the processing

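Against 294 higher and 241 lower genes, the counts were 183 and 130 with no low-count filter, 105 and 70 with only the 12 libraries fitted, 23 and 15 without the 6J libraries with Lcn2 above 2 CPM, and 386 lower with DESeq2. They were 52 and 23 without code number 32, 111 and 83 without 38, and 165 higher without 40. Leaving out each library gave 165 to 404 higher and 108 to 408 lower. The fits with fewer libraries have less precision, and other causes were not tested. The interaction with the home cage ranged from 0 to 1 gene over left-out libraries and was 1 without code number 34. The interaction with shock and cue was 1 with DESeq2, 0 to 1 over left-out libraries and 11 without code number 34; leaving out code numbers there was added after the data were seen. VH counts were 90 and 85 without 40A. Transcripts were 317 higher and 222 lower with DESeq2, and 123 and 51 without 40A. Of 72 named called genes, 72 kept their call with RLE size factors and with the choroid covariate, 71 of 71 with DESeq2, 63 without 40A, 46 with only the 12 libraries and 24 without the Lcn2-high libraries. Signs turned without those libraries for Lcn2 (1.155), Sult1a1 (0.023), Icam1 (0.119), Maff (0.007), Plin4 (0.145), Lrg1 (0.069) and Npas4 (0.097). Those libraries were picked by their Lcn2 level, so the loss of the Lcn2 difference followed from that choice. The sign of Ttr turned without 32B (-2.257 to 0.143 over left-out libraries) and with the choroid covariate (0.031). Ttr is itself among the markers averaged in that covariate, so the loss of its difference there was built in. Oprk1 turned without code number 38 (0.186). Entpd4b turned without 40A (-0.067 to 1.816 over left-out libraries), without code number 34 (-0.334) and without code number 40 (-0.255). Against RLE size factors the median of all genes shifted by -0.0032. No paired analysis was possible because the label groups compared share no code. Between regions, the replicate block (the code as a random effect) called 0 genes, and the code correlation was 0.156. Each code number belonged to 1 label, so number and label cannot be told apart.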

Other observations

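Genes lower under the 6NJ label were longer than genes higher under it. The median exon length was 5780 bases for the 241 lower genes, 3195.5 bases for the 294 higher genes and 3680 bases for all genes tested. Among protein-coding genes it was 6181, 3515.5 and 4390 bases. Abundance did not follow the same order: the median of mean CPM was 39.5 for lower, 28.3 for higher and 12.7 for all genes. No test of this was made, and the measures of RNA quality behind these libraries were not used here.

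Called genes lay on the autosomes, X, Y and the mitochondrial genome. The share called higher was 12.5% on Y (1 of 8 genes) and 9.38% on the mitochondrial genome (3 of 32), with none lower on either. It was 2.75% on X, 2.18% on chromosome 19 and 2.09% on chromosome 1, and 0.534% on chromosome 12. The share called lower was 1.91% on chromosome 5 and 1.88% on chromosome 14, and 0.467% on chromosome 19.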
